A study of Mus musculus with 2 samples.

Results

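Footprints that lay outside every called peak of their own library were described in 2 DNase-seq libraries of mouse T cells. The members were selected on the authors' own calls: an interval of a library's footprint list was taken when it shared no base with any interval of either of that library's 2 peak lists. Replicate 2 held 17371 such footprints among 146244, or 11.9% (95% Wilson interval 11.7 to 12). Replicate 3 held 1469 among 29967, or 4.90% (4.66 to 5.15). Across both libraries there were 18840 members among 176211 footprints. The share averaged 8.39% ± 4.93 (SD, n = 2 libraries). Because the peak lists chose the members, nearness to a peak, the cut rate and the signal of the neighbouring peak are given as description only. The same holds for overlap with peaks of the other library.

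Both libraries came from naive resting CD8+ alpha-beta T cells of virgin adult male B6CASTF1/J mice aged 2 months. B6CASTF1/J animals are first-generation hybrids of C57BL/6J and CAST/EiJ. The labels give biological replicates 2 and 3, each with technical replicate 1, as separate biosamples under the same donor label. Every SD below is therefore a spread between 2 libraries, which may not be a spread between animals. There is therefore 1 group and no treated, mutant or control arm. No test between conditions was possible, and 2 libraries give only a spread between samples. Intervals on shares cover counting error only, and footprints beside the same peak are not independent, so these intervals are narrower than the true uncertainty.

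DNase I cuts DNA where chromatin is open, and a peak is a stretch with many cuts. A protein bound to DNA shields the bases under it, which leaves a short dip in cutting called a footprint. In naive T cells, open chromatin includes the promoters that most cells use and the enhancers that keep genes of quiescence and lymph node homing ready. CTCF, an insulator protein, and NRF1, KLF/SP, ETS, CREB/ATF and YY1, which bind many promoters, are known for strong footprints or frequent promoter sites. A footprint outside a peak is a dip called where the same library's peak caller drew no peak.

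The sequences below show what such footprints look like at the 4 motifs that were most frequent in the members of replicate 2 relative to windows beside them, among motifs with at least 4 matches in those windows. For each motif and library they were taken from the members with a match that lay farthest from a peak. Some of these were still close to one, such as that at Cnot2, 33 bp away. All are RefSeq reference sequence of GRCm38 (mm10), plus strand, 5′ to 3′, not the alleles of these hybrid mice. Each holds the footprint with 6 bp on either side, and the capitals mark the motif match. Every one lies within 1000 bp of an annotated start, and the gene named is the nearest.
NRF1, Zfp78, replicate 2, chr7:6363280-6363300: agaggctgCGCTTGCGCacac
NRF1, Mcrs1, replicate 2, chr15:99251664-99251692: atgccacctgtGCGCATGCGtaacaccgc
NRF1, Cdv3, replicate 3, chr9:103365740-103365760: gcgccgCGCCTGCGCgctcgg
NRF1, Mrtfb, replicate 3, chr16:13256263-13256285: gcagcccagctgCGCATGCGCcc
KLF/SP, Kat6b, replicate 2, chr14:21501226-21501255: agcgtgacggtaggGGGCGGGGgagaggag
KLF/SP, Atp2b1, replicate 2, chr10:98914930-98914948: ggttgcaCCCCGCCCgttg
KLF/SP, Diablo, replicate 3, chr5:123524485-123524503: cgcggtgGGGCGGGGcgga
KLF/SP, Cfap57, replicate 3, chr4:118620547-118620571: tccatcgCCCCGCCCctaggctcct
CREB/ATF, Aldoa, replicate 2, chr7:126799568-126799586: cagccTGACGTCActgcta
CREB/ATF, Pmvk, replicate 2, chr3:89458816-89458842: cctccctcgctaTGACGTCAagaaaca
CREB/ATF, Mettl4, replicate 3, chr17:94750079-94750099: aatccTGACGTCAgcgcgggc
CREB/ATF, Braf, replicate 3, chr6:39725546-39725565: ctgggtgcgTGACGTCAtcc
YY1, Wdr34, replicate 2, chr2:30049158-30049179: caAAGATGGCGctgagcggccg
YY1, 0610009B22Rik, replicate 3, chr11:51688881-51688900: ggttttgtcCGCCATCTTgg
YY1, Cnot2, replicate 3, chr10:116581470-116581494: cccgcggatccAAGATGGCGacgta

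The NRF1 match near Zfp78, a zinc finger gene, was 486 bp from the nearest peak of replicate 2 and 10 bp downstream of the gene's start. That base range lay under a peak of replicate 3 but under no footprint of it. The KLF/SP match in the promoter of Kat6b, a histone acetyltransferase gene, was 492 bp from a peak of replicate 2 and 388 bp downstream of the start. The lowest deposited false discovery rate of the cut signal there was 2.33e-29, and a peak of replicate 3 covered it. The CREB/ATF match upstream of Braf, a kinase gene of the growth factor pathway, was 52 bp from a peak of replicate 3 and lay under both a peak and a footprint of replicate 2.

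The members lay close to the peaks of their library. The distance from a footprint to the nearest peak, with adjacent bases counted as 1 bp, had a median of 37 bp in replicate 2 and 35 bp in replicate 3. The quartiles were 14 and 80 bp in replicate 2 and 13 and 59 bp in replicate 3. Within 50 bp of a peak lay 61.2% of members in replicate 2 and 65.9% in replicate 3, and within 200 bp lay 96.3% and 99.3%. The farthest member was 520 bp away in replicate 2, upstream of the zinc transporter gene Slc39a10, and 319 bp away in replicate 3. No member of either library stood as far as 1000 bp from a peak. In replicate 2, 28.3% had a peak within 500 bp on both sides, against 16.7% in replicate 3.

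**Figure D1:**
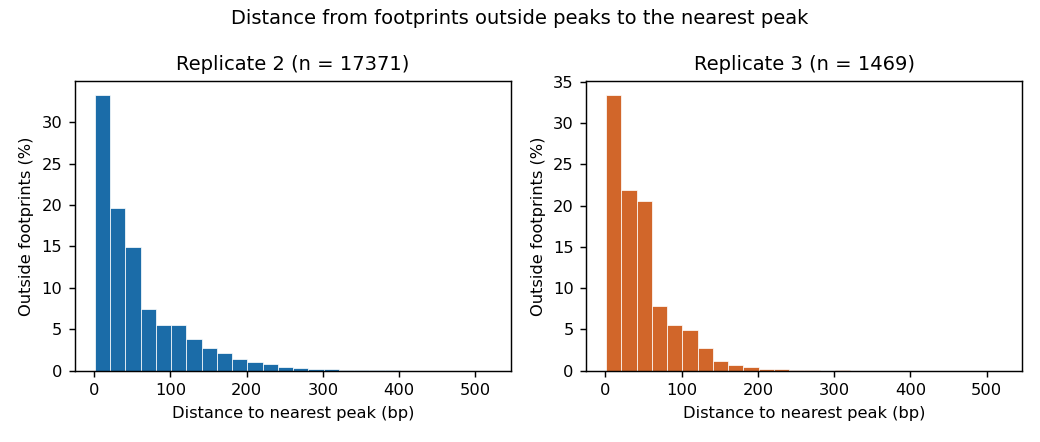
Distance from each footprint outside peaks to the nearest peak of its library, in bp (x axis, bins of 20 bp), as the percent of such footprints (y axis), for replicate 2 and replicate 3. Both distributions are highest beside the peak, with medians of 37 and 35 bp, and end at 520 and 319 bp.

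Footprints just outside and just inside the edge were set side by side. In replicate 2, 1766 footprints lay 1 to 5 bp outside a peak and 1944 reached inside one by 1 to 5 bp only. Their mean width was 10.5 bp in each set, G and C made up 62.5% of the bases outside and 61.9% inside, and 63.0% outside and 59.6% inside were at promoters. The sets of replicate 3 held 181 and 171 footprints, with a mean width of 9.83 bp outside and 9.53 bp inside. There G and C made up 63.9% outside and 61.0% inside, and 72.9% outside and 59.1% inside were at promoters. The shares under a peak of the other library were 23.8% outside and 52.6% inside in replicate 2, and 75.1% outside and 92.4% inside in replicate 3.

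Almost all members stood in DNA that the authors' deposited cut-rate list marked as significant. A base at a false discovery rate of 0.001 or less lay under 86% of members in replicate 2, against 86.1% of footprints inside peaks. In replicate 3 these shares were 90.9% of members and 94.4% of footprints inside peaks. Footprints inside the nearest peaks of replicate 2 had a higher share, 96.1% (95.9 to 96.3). Only 158 members of replicate 2 (0.910%) and 2 of replicate 3 (0.136%) lay in no listed stretch at 0.05 or less. Of the members in a stretch, 96.5% in replicate 2 and 99.1% in replicate 3 shared that stretch with a peak. These stretches had a median length of 1003 bp in replicate 2 and 647 bp in replicate 3, so the listed DNA ran on past the peak edges. Of the bases at 0.05 or less, 43.6% in replicate 2 and 40.4% in replicate 3 lay outside peaks. Footprints were sparser there: 1.97 per kb outside and 11.3 per kb inside peaks in replicate 2, and 0.456 per kb outside and 5.99 per kb inside in replicate 3.

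Strong peaks most often had a member beside them. After the peaks of both lists were joined where they overlapped, 9581 of 52906 peaks (18.1%) were the nearest peak of a member in replicate 2, and 990 of 24769 (4.0%) in replicate 3. In replicate 2 the share was 70.3% (69 to 71.5) in the decile of peaks with the highest deposited signal and 6.67% (6.03 to 7.38) in the lowest decile. It stayed between 6.67% and 10.8% over the 7 lowest deciles and reached 15.6% and 32.3% in deciles 8 and 9. For replicate 3 it was 10.2% (9.09 to 11.5) in the highest decile, while 0 of 2477 peaks in the lowest decile had a member, which allows up to 0.155%. One peak of replicate 2 had 16 members and one of replicate 3 had 7. The stricter list held the nearest peak of 89.8% of members in replicate 2 and 95.2% in replicate 3. No share by decile is given for footprints inside peaks. The median signal of the nearest peak was 4.17 for members and 1.66 for footprints inside peaks in replicate 2. In replicate 3 it was 4.65 for members and 4.61 for footprints inside peaks, so there members did not stand by stronger peaks than other footprints.

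**Figure D2:**
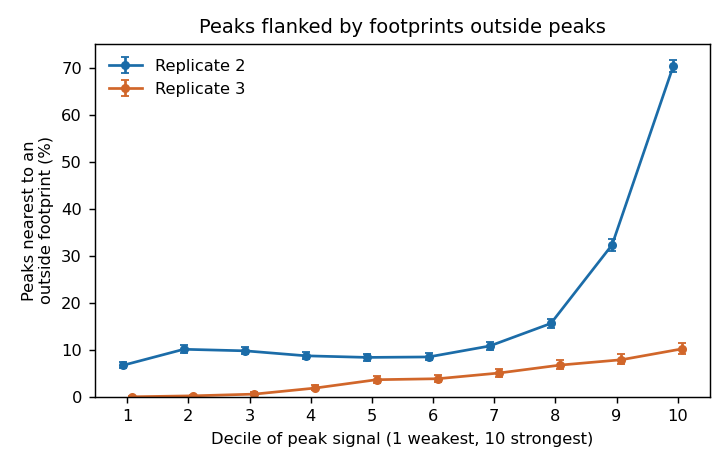
Percent of peaks that are the nearest peak of a footprint outside peaks (y axis) by decile of deposited peak signal within each library (x axis, weakest to strongest), with 95% Wilson intervals. Replicate 2 climbs steeply over the last deciles to 70.3%, while replicate 3 climbs slowly to 10.2%.

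Promoters held most of the members. Within 1000 bp of the start of a protein-coding gene lay 70.4% of members in replicate 2 and 80.8% in replicate 3, an average of 75.6% ± 7.32 (SD, n = 2). The share among all footprints inside peaks was 46.3% in replicate 2 and 70.8% in replicate 3. Members exceeded it by 24.1 percentage points (95% Newcombe interval 23.4 to 24.8) in replicate 2 and by 10 points (7.84 to 12) in replicate 3. The sign turned when the comparison was kept to the same peaks. Against footprints inside the peaks nearest to the members, of which 76.3% and 83.2% were at promoters, the difference was -5.86 points (-6.66 to -5.05) in replicate 2 and -2.42 points (-5.11 to 0.241) in replicate 3. This comparison with the nearest peaks was chosen after the data were seen.

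Introns held 12.9% of members and 24.1% of footprints inside peaks in replicate 2, and 7.28% of members and 11.2% of footprints inside peaks in replicate 3. Intergenic DNA held 14.8% of members and 26.3% of footprints inside peaks in replicate 2, and 11.3% and 16.0% in replicate 3. Coding exons held 1.17% of members in replicate 2 and 0.340% in replicate 3. Untranslated exons outside promoters held 0.604% and 0.272%.

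**Figure D3:**
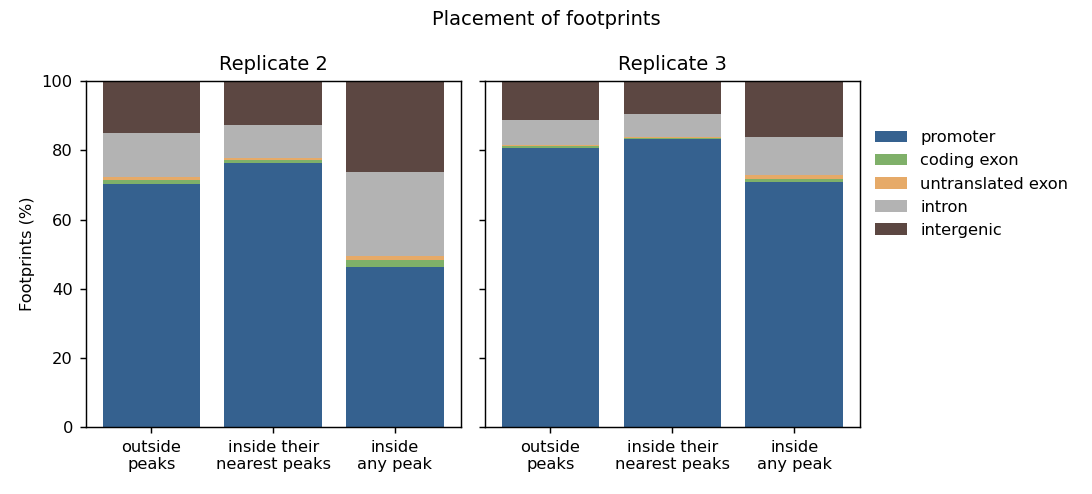
Placement of footprints outside peaks, of footprints inside the peaks nearest to them, and of footprints inside any peak, as stacked percent of each set (y axis), for replicate 2 and replicate 3. The promoter share of the outside footprints (70.4% and 80.8%) is close to that inside their nearest peaks (76.3% and 83.2%) and above that inside any peak (46.3% and 70.8%).

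At promoters the members stood farther from the start, and more often downstream of it, than footprints inside peaks. Among those within 1000 bp of a start, the median distance to it was 151 bp for members and 93 bp for footprints inside peaks in replicate 2, and 92.5 bp for members and 63 bp inside peaks in replicate 3. Downstream of the start lay 49.7% of these members and 41.1% of the inside footprints in replicate 2, a difference of 8.61 points (7.64 to 9.58). In replicate 3 the shares were 34.4% and 29.8%, a difference of 4.60 points (1.88 to 7.42). Both differences were larger, at 14.6 and 5.10 points, against footprints inside the nearest peaks.

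Members were rich in G and C, as promoters are. G and C made up 65.9% of the bases of members in replicate 2 and 66.8% in replicate 3, against 57.5% and 60.3% in equally wide windows whose centres lay 100 bp away on either side. Footprints inside peaks had 63.5% in replicate 2, a difference of 2.48 points (2.25 to 2.72), and 67.2% in replicate 3, a difference of -0.307 points (-1.12 to 0.494). Against footprints inside the nearest peaks, with 68.6%, the difference in replicate 2 was -2.66 points (-2.92 to -2.40). At promoters alone, members and inside footprints had 70.2% and 70.1% in replicate 2, and 69.8% and 70.0% in replicate 3. In introns, members had 53.6% and inside footprints 56.9% in replicate 2. CpG dinucleotides, which cluster in the CpG islands of broadly used promoters, numbered 10 per 100 bp in members and 7.70 inside peaks in replicate 2, and 9.71 in members and 9.19 inside peaks in replicate 3. A CpG-rich window of 500 bp surrounded 64.1% of members and 41.8% of inside footprints in replicate 2, and 78.7% and 69.7% in replicate 3. Here too the order turned against footprints inside the nearest peaks, which had 11.3 CpG per 100 bp and 74.1% in such windows in replicate 2, and 10.1 and 83.3% in replicate 3.

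Base composition and promoter share changed with distance from the edge in replicate 2. G and C made up 63.4% (63.0 to 63.7) of the bases of members 1 to 25 bp from a peak, 67.4% at 51 to 100 bp and 71.6% (70.4 to 72.7) at 201 to 520 bp. The promoter share was 66.7%, 70.7% and 82.2% in the same bins. For replicate 3 the bin of 1 to 25 bp had 64.1% G and C and 72.4% at promoters, and the bin of 26 to 50 bp had 69.6% and 84.6%. Beyond 150 bp replicate 3 had only 25 and 11 members in the last bins, which is too few to read.

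**Figure D4:**
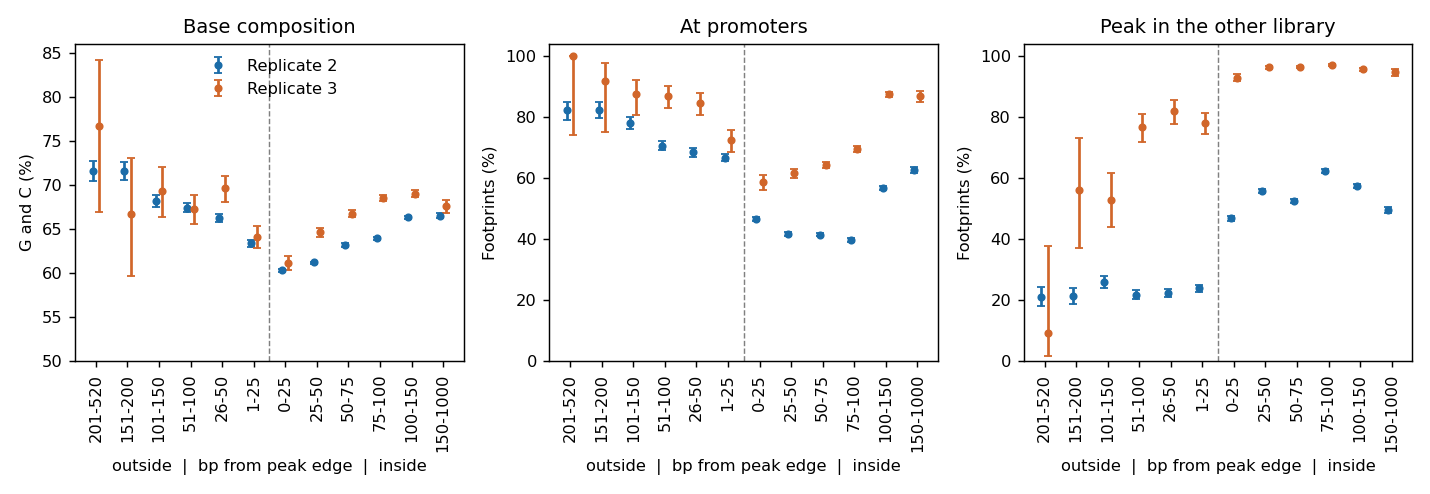
Percent of G and C (left), percent at promoters (middle) and percent under a peak of the other library (right) for footprints by distance from the peak edge, outside footprints to the left of the dashed line and inside footprints to the right, with 95% Wilson intervals. Outside distances run from the footprint's nearer end, inside distances from its centre, and inside footprints whose centre lies beyond the edge are not drawn. Outside the edge, G and C and promoter shares are lowest in the bin nearest to it, and coverage by the other library steps down across the edge.

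Members were short. The median width was 8 bp in both libraries, against 10 bp inside peaks in replicate 2 and 9 bp in replicate 3, and the mean was 10.1 and 9.37 bp against 12.5 and 10.1 bp. The shortest width in the lists, 7 bp, made up 38.0% of members and 27.6% of inside footprints in replicate 2, and 43.6% and 34.8% in replicate 3. Widths of 25 bp or more made up 2.03% of members and 8.89% of inside footprints in replicate 2, and 0.749% and 1.41% in replicate 3. The shortfall in width was larger against the nearest peaks, whose footprints averaged 14.0 bp in replicate 2 and 10.4 bp in replicate 3.

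The widest member of replicate 2 covered 52 bp at chr9:123462190-123462241, in an untranslated exon, 90 bp from a peak with a signal of 78.9. One of 48 bp, at chr16:11144315-11144362 in an intron, stood 15 bp from a peak with a signal of 80.3. These signals compare with a median nearest-peak signal of 4.17 in replicate 2. Another member of 48 bp, with a KLF/SP match, lay at chr9:108264004-108264051 in the promoter of Dag1, which encodes the matrix receptor dystroglycan, and overlapped a member of replicate 3.

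Repeats were rare among members, as they were inside peaks. At least 50% of the bases were soft-masked in 10.1% of members and 9.70% of inside footprints in replicate 2, a difference of 0.418 points (-0.0512 to 0.902). In replicate 3 the shares were 6.06% and 4.77%, a difference of 1.29 points (0.152 to 2.65). The windows beside the members had 9.58% and 7.66%, and soft-masked bases make up 36.4% of the reference genome. Against footprints inside the nearest peaks, which had 6.43% and 4.80%, the difference was 3.69 points (3.18 to 4.21) in replicate 2 and 1.26 points (-0.312 to 2.88) in replicate 3. Members had the higher shares when placements were kept apart. Intergenic members had 18.9% in replicate 2 and 14.5% in replicate 3, against 13.4% and 7.38% of intergenic inside footprints. Promoter members had 7.32% and 4.21%, against 5.38% and 3.48% inside peaks. Intron members had 15.9% and 14.0%, against 14.6% and 9.38% inside peaks. In introns of replicate 2 the interval of the members (14.5 to 17.5) took in the inside share.

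Simple runs, sought in footprints extended by 5 bp on either side, were few. A run of at least 6 G or 6 C bases occurred in 2.57% of members and 1.65% of inside footprints in replicate 2, and in 1.77% and 1.46% in replicate 3. A run of at least 8 A or 8 T bases occurred in 0.754% of members and 0.206% of inside footprints in replicate 2, and in 0.0681% and 0.0281% in replicate 3.

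Motifs were sought on both strands in footprints extended by 5 bp and, for a background, in equally wide windows whose centres lay 100 bp away on either side and that met no footprint. A match is a match of letters and does not show binding. The windows held less G and C than the members, 57.5% against 65.9% in replicate 2, and the ratios were not adjusted for this. NRF1 (GCGCANGCG), a regulator of mitochondrial and housekeeping genes, matched 15.8 times per 1000 members in replicate 2, against 0.834 per 1000 windows. Per base this was 18.5 times the windows' rate (95% interval of the ratio 11.6 to 31.2), and 8.29 times with footprints extended by 10 bp. In replicate 3 it matched 45.6 times per 1000 members, against 3.70 per 1000 windows, a ratio of 12.3 (6.09 to 28.0), and 7.98 with that extension. The NRF1 motif is close to its own reverse complement, so a site can be counted on each strand.

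KLF/SP (GGGCGGGG), bound by zinc finger factors at GC boxes, was the most frequent of these promoter motifs. It occurred in 3.03% of members in replicate 2 and 4.77% in replicate 3, and its rate per base was 4.45 (3.73 to 5.34) and 3.88 (2.52 to 6.12) times that of the windows, which had 7.06 and 12.7 matches per 1000. CREB/ATF (TGACGTCA), the cyclic AMP response element, had 29 matches in replicate 2 and a ratio of 7.41 (2.84 to 24.5), or 3.41 with the 10 bp extension. In replicate 3 it had 6 matches in members and 0 in the windows. ETS (CCGGAAGT), bound by factors such as Ets1 and Gabpa, had ratios of 2.66 (1.62 to 4.47) and 5.5 (1.41 to 31.1). With windows centred 200 bp away the ETS ratio of replicate 3 was 3.01 and its interval included 1. YY1 (AAGATGGCG) had 2.83 (1.46 to 5.75) in replicate 2, and in replicate 3, with 3 matches, 0.824 (0.133 to 3.86), which was 2.71 with windows at 200 bp and 1.65 with the extension. RFX (GTTGCCATG) had 18 matches in replicate 2 and a ratio of 7.66 (2.24 to 40.6), on 3 matches in the windows, and 3.10 with windows at 200 bp.

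Some motifs were less frequent in members than beside them. In replicate 2 the ratio was 0.438 (0.310 to 0.609) for ZEB (CAGGTA), 0.443 (0.270 to 0.708) for AP-1 (TGANTCA), 0.497 (0.331 to 0.734) for AGATAA, the motif of the GATA factors, and 0.728 (0.590 to 0.894) for NFAT (TGGAAA). This was not particular to members. In footprints inside peaks of replicate 2 the ratios were 0.526 for ZEB, 0.636 for AP-1, 0.355 for GATA and 0.701 for NFAT. In members of replicate 2, TCF7/LEF1 (CTTTGAN), the motif of the factors that mark naive T cells, had 0.979 (0.771 to 1.24), and RUNX (TGTGGTTT) had 1.67 (0.936 to 3.00). In replicate 3 each of these 6 motifs had at most 6 matches in members, and every interval that could be computed included 1. With windows centred 200 bp away the interval for RUNX in replicate 2 lay above 1, at a ratio of 1.80. With footprints extended by 10 bp that for NFAT in replicate 2 took in 1, at 0.907. The searched motifs not named so far, CTCF apart, had intervals that included 1 in both libraries, where one could be computed. Among them the interval lay above 1 for ZNF143 (ACTACAANT) with footprints extended by 10 bp, at ratios of 2.58 in replicate 2 and 9.91 in replicate 3, and for NFY (CCAATCA) in replicate 3 with windows at 200 bp, at 2.71.

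CTCF set members apart from footprints inside peaks, though not at promoters of replicate 3. Its motif occurred in 0.150% of members (26 of 17371) and 2.81% of inside footprints in replicate 2, and in 0.613% (9 of 1469) and 2.15% in replicate 3. Per base, members had 0.0598 (0.0390 to 0.0878) of the inside rate in replicate 2 and 0.296 (0.135 to 0.565) in replicate 3. Away from promoters the shares were 0.331% of members and 4.94% of inside footprints in replicate 2, with 2.80% inside the nearest peaks. In replicate 3 they were 1.06% (0.362 to 3.08) of members and 6.42% of inside footprints, with 3.45% (1.88 to 6.23) inside the nearest peaks. At promoters of replicate 2 they were 0.0735% of members and 0.340% of inside footprints, with 0.205% inside the nearest peaks. At promoters of replicate 3 members had 0.505% (0.232 to 1.10) and inside footprints 0.392%, with 0.278% (0.108 to 0.713) inside the nearest peaks. Against the nearest peaks the difference over all placements was -0.669 points (-0.778 to -0.558) in replicate 2 and -0.197 points (-0.814 to 0.441) in replicate 3. Members still held the CTCF motif more often per base than the windows beside them. The ratio was 33.2 (5.46 to 1361) in replicate 2 and 14.8 (2.06 to 650) in replicate 3, each on 1 match in the windows.

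Against all footprints inside peaks, NRF1 had 0.893 (0.786 to 1.01) of the inside rate per base in replicate 2 and 1.11 (0.854 to 1.42) in replicate 3. KLF/SP had 1.03 (0.938 to 1.12) and 1.04 (0.808 to 1.31). Lower rates were seen in replicate 2 for ETS, at 0.548 (0.406 to 0.726), CREB/ATF, at 0.459 (0.304 to 0.667), and NFY, at 0.507 (0.345 to 0.721). In replicate 3 these motifs had 0.903 (0.427 to 1.69), 0.617 (0.224 to 1.37) and 1.23 (0.627 to 2.20) of the inside rate, in that order. Rates in replicate 2 were also lower for NF-kB (GGGANTTCC), at 0.443 (0.199 to 0.862), and AP-1, at 0.572 (0.365 to 0.858). The same held for the E-box (CACGTG), at 0.620 (0.476 to 0.797), and ZEB, at 0.720 (0.526 to 0.964). In replicate 3 the intervals of NF-kB, AP-1, the E-box and ZEB included 1. Per 1000 footprints of replicate 2, NRF1 matched 15.8 times in members and 41.1 times inside the nearest peaks, and KLF/SP 32.3 and 67.9 times. In replicate 3 the values were 45.6 in members and 45.1 inside the nearest peaks for NRF1, and 49.7 and 57.8 for KLF/SP. At promoters alone, NRF1 occurred in 1.74% of members and 3.22% of inside footprints in replicate 2, and KLF/SP in 3.87% and 6.25%. In replicate 3 the promoter shares were 4.13% (3.14 to 5.42) of members and 4.67% (4.39 to 4.97) of inside footprints for NRF1, and 5.56% (4.39 to 7.01) and 6.45% (6.12 to 6.79) for KLF/SP.

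**Figure D5:**
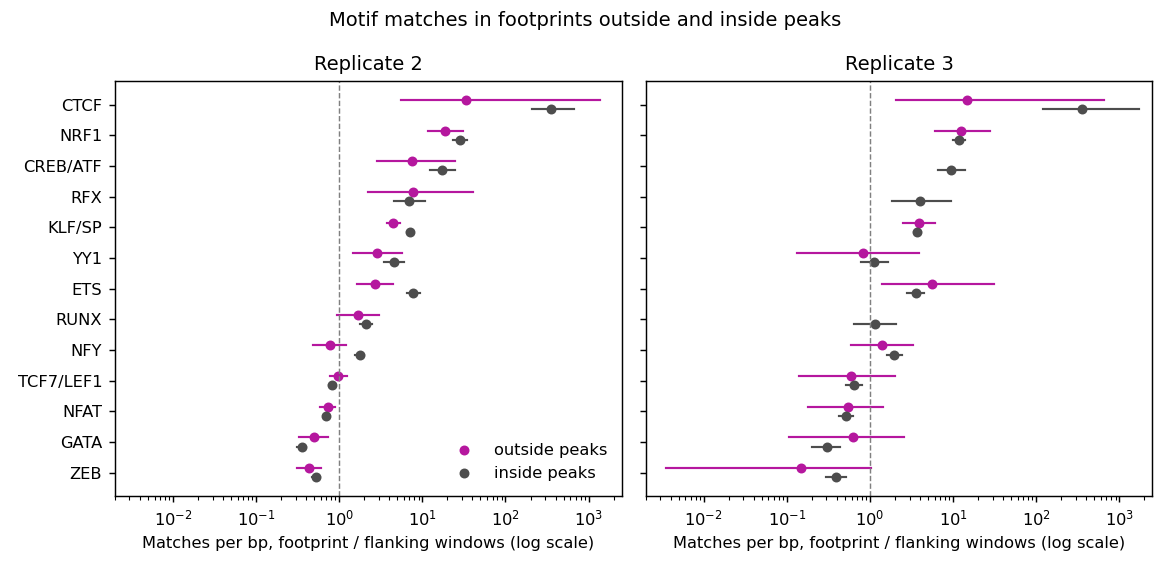
Motif matches per base in footprints over those in flanking windows (x axis, log scale) for 13 of the 25 motifs, in footprints outside peaks (purple) and inside peaks (grey), for replicate 2 and replicate 3, with 95% intervals of the ratio. Points are left out where the windows held no match. NRF1 and KLF/SP lie to the right of 1 in both sets and libraries, while the CTCF points lie farther right inside peaks than outside, with wide outside intervals that rest on 1 match in the windows of each library.

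Members lay under a peak of the other library less often than the footprints of their library at large. Members were chosen for having no peak in their own library, and most other footprints lie in one. The difference can therefore follow from the choice, and the shares are description only. A peak of replicate 3 covered 23.1% (22.4 to 23.7) of the members of replicate 2, against 51.4% of all footprints of replicate 2. A peak of replicate 2 covered 75.8% (73.6 to 78.0) of the members of replicate 3, against 95.2% of all footprints of replicate 3. At promoters of replicate 2 the shares were 26.2% of members and 72.0% of inside footprints, so the gap was not confined to distal DNA.

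Where no peak of the other library covered a member, one was usually close. The median gap to it was 86 bp for members of replicate 2 and 46 bp for members of replicate 3. Within 500 bp lay a peak for 74.3% of these members in replicate 2 and for 100% in replicate 3. Every member also lay within 520 bp of a peak of its own library. No such gap is given for other footprints, so these values are description only. Among all members of replicate 2, 46.5% lay only in a significant stretch of replicate 3, and 29.5% in none. Of the members of replicate 3, 10.2% lay only in a stretch of replicate 2, and 0.0681% in none.

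A footprint of the other library overlapped 4.02% of members in replicate 2 and 58.8% in replicate 3. For footprints inside peaks the shares were 13.4% and 67.3%. Of the members of replicate 3, 44.9% met a footprint of replicate 2 under a peak of replicate 2, and 13.9% met one with no peak of replicate 2 over them. Both libraries called a footprint outside their peaks at 179 members of replicate 3 (12.2%) and 169 members of replicate 2 (0.973%).

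Among these shared members the widest in replicate 3 covered 29 bp at chr17:78916455-78916483 in the promoter of Cebpzos, 38 bp from a peak. The next covered 26 bp at chr9:62811910-62811935, at the start of Fem1b, a ubiquitin ligase adaptor gene. Of the 10 widest shared members, 9 were in promoters. The exception was in an intron, at -1486 bp from the nearest start, that of Igsf8. Those at Ahsa2 and Dennd6b held a KLF/SP and a CTCF match, and the lowest false discovery rates of the 10 ran between 1.66e-06 and 5.34e-53.

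The sources do not state the depth of either library. If the peak signal was scaled to 1e+06 tags, its smallest steps correspond to 134034849 tags in replicate 2 and 22138476 in replicate 3, a ratio of 6.05. The stricter and permissive lists held 38223 and 53597 peaks in replicate 2, and 17061 and 24844 in replicate 3. Whether depth has a part in the unequal shares of the libraries was not tested. By chromosome, the share outside peaks ran between 9.66% on X and 13.2% on 7 in replicate 2. In replicate 3, leaving out Y with 7 footprints, it ran between 2.94% on 18 and 6.89% on 14.

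A gene's locus was taken as its body with 10 kb on either side, so neighbours can share members. In replicate 2, 8923 of 21827 protein-coding genes (40.9%) had a member at their locus, and in replicate 3 1455 (6.67%). Genes of the naive and memory precursor list had one in 13 of 16 cases in replicate 2, T cell receptor and signalling genes in 13 of 18, CD8 lineage genes in 3 of 4 and housekeeping genes in 9 of 10. Effector genes had one in 5 of 16 cases, B cell genes in 3 of 8, CD4 and helper genes in 2 of 10, erythroid and megakaryocyte genes in 2 of 7, genes of other tissues in 2 of 10, NK genes in 1 of 5 and myeloid genes in 0 of 8. In replicate 3 only 1 naive gene and 1 housekeeping gene had any.

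Members were also counted as a share of all footprints at a list's loci. At loci of the naive list, 71 of 740 footprints (9.59%) of replicate 2 lay outside peaks, against 13.3% at all protein-coding loci. At T cell receptor and signalling loci it was 38 of 364 (10.4%), at effector loci 13 of 162 (8.02%), at B cell loci 12 of 72 (16.7%) and at housekeeping loci 26 of 152 (17.1%). In replicate 3 the naive list had 4 of 76 (5.26%), against 5.11% at all protein-coding loci.

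Counts at single T cell genes are read against the share outside peaks over all footprints, 11.9% in replicate 2 and 4.90% in replicate 3. No gene was tested for a difference from it. Bach2, a repressor that holds T cells in the naive and memory state, had 14 members among 128 footprints in replicate 2 and 4 among 33 in replicate 3. Ccr7, the receptor that guides naive cells into lymph nodes, had 12 among 79 in replicate 2 and no footprint at all in replicate 3. Klf2, a quiescence and trafficking factor, had 7 among 28 in replicate 2, and 0 among 5 in replicate 3. Lef1 had 5 among 81, Ets1 4 among 31, Runx3 4 among 38 and Bcl11b 4 among 42 in replicate 2. Cd8b1 had 2 among 6, Tcf7 2 among 20, Cd8a 1 among 14, Il7r 1 among 20 and Satb1 1 among 39.

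Other named loci had few members or none. Cd3e, Id3 and Ikzf1 had 0 members in either library, although replicate 2 had 16, 21 and 23 footprints there. Cd4 had 0 among 14 and Foxp3, which defines regulatory T cells, had 4 among 21 in replicate 2. The effector genes Gzmb, Prf1, Ifng, Tbx21 and Eomes and the genes Pax5, Csf1r, Gata1 and Alb of other lineages had 0 members in either library. Of these, Ifng, Csf1r, Gata1 and Alb had no footprint of any kind. The others had few in replicate 2: 5 at Gzmb, 9 at Prf1, 1 at Tbx21, 6 at Eomes and 9 at Pax5. As 11.9% of all footprints of replicate 2 lay outside peaks, 0 members among so few cannot be read as a lack.

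The loci with the most members in replicate 2 included 2 very long ones. Gm20388, annotated at chr8:119910841-124345722, had 92 members among 753 footprints, and Fgfr2, a growth factor receptor gene annotated at chr7:130162451-133123350, had 46 among 286. Among shorter loci, Sin3a, the scaffold of a histone deacetylase complex, had 26 members among 48 footprints in replicate 2 and 3 among 14 in replicate 3. Slc39a10 had 18 among 27, H2-DMa, which helps load peptides on class II molecules, had 18 among 45, and Ddx5, an RNA helicase gene, had 17 among 36 in replicate 2. In replicate 3 Kat6b led with 7 members among 9 footprints, against 13 among 32 in replicate 2. Cactin followed with 6 among 7 in replicate 3 and 6 among 18 in replicate 2.

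Members often stood in groups. When members within 500 bp of each other were joined, replicate 2 had 9142 groups, of which 5134 held a single member and 545 held 5 or more. Replicate 3 had 981 groups, of which 672 held a single member and 14 held 5 or more. The largest held 16 members at chr5:99978659-99979446, around the starts of 4930524J08Rik and the RNA-binding protein gene Hnrnpd. All 16 were promoter members and 12 lay under a peak of replicate 3. Groups of 14 stood at the start of Atp2b1, a plasma membrane calcium pump gene (chr10:98914081-98915209), and near that of Tmem259 (chr10:79984558-79985349). Groups of 13 stood at Slc39a10 and Mon1b.

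In replicate 3 the largest group held 7 members at chr14:21500595-21500944, at the start of Kat6b, and 3 of them lay under a peak of replicate 2. The group at Cdv3 held 6, all of them under a peak of replicate 2. A group of 5 at Tmem259 (chr10:79984970-79985237) lay within the group of 14 of replicate 2, and only 1 of its members was under a peak of replicate 2.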

How the data were processed

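The authors' deposited files give, for each library on mm10, 2 peak lists with a signal per peak, a list of intervals with a false discovery rate (a q-value per stretch) and a footprint list whose value column is constant. Per the file headers and accompanying notes, every list came from the same library's alignments. No aligner, caller or threshold is named in the sources used here. Each library's shorter peak list is called stricter, the longer permissive. Depth is not stated. The reference was RefSeq GRCm38 (soft-masked) with GENCODE M21 protein-coding genes from the annotation supplied with it, and its chromosome lengths hold every interval. A member overlaps no peak by 1 bp or more. Placement took promoter (1000 bp either side of a start), then coding exon, untranslated exon, intron and intergenic. A CpG-rich window has at least 50% G and C and an observed over expected CpG of at least 0.6. Shares carry 95% Wilson intervals, motif ratios exact intervals of 2 Poisson counts. There are no p-values.

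The members, the 25 motifs and the 11 gene lists were chosen with earlier results of these data known. Named by rule were 27 fixed genes, the 10 loci with most members, the 5 farthest and widest members and largest groups per library, and 10 shared members; the text prints those that show a pattern, and a few named items are not reported here. Interval and motif code was tested on simulated data. Scripts ran in Python 3.11.15 with pysam 0.24.0, scipy 1.17.1, pandas 2.3.3 and numpy 2.4.6; figures used matplotlib 3.10.9.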

Additional observations from a re-analysis of the deposited data

How the results depend on the processing

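The footprints counted as outside depended on the peak list and the edge. With only the stricter list, 35930 footprints of replicate 2 and 3113 of replicate 3 lay outside; with peaks extended by 50 bp, 6747 and 501. As means over both libraries, the share outside was 17.5% with the stricter list and 3.14% with extended peaks, the median distance to a peak 128 and 89.5 bp, and G and C 61.2% and 68.2%. The promoter share was 51.4% with the stricter list. Counting as outside every footprint with under 50% of its bases in a peak gave a median distance of 31.0 bp and a median width of 8.5 bp. Without replicate 2 or without replicate 3, the share outside was 4.90 to 11.9%, the median distance 35 to 37 bp, the promoter share 70.4 to 80.8%, the repeat share 6.06 to 10.1%, the share under a peak of the other library 23.1 to 75.8%, and G and C 65.9 to 66.8%. Against footprints inside the nearest peaks, a comparison chosen after seeing the data, the promoter difference turned to -5.86 points in replicate 2 and -2.42 in replicate 3, and the G and C difference to -2.66 points in replicate 2. No motif ratio whose interval excluded 1 moved to the other side of 1; some with few matches did cross it, such as AP-1 in replicate 3, 4.12 or, with windows at 200 bp, 0.904. With footprints extended by 10 bp, the CTCF ratio of replicate 3 was 8.26 in place of 14.8. The interval moved below 1 with windows at 200 bp for IRF (0.702) and FOXO (0.371) in replicate 2, and under both settings for ZEB in replicate 3 (0.10 and 0.30). Taking 50 kb either side gave 3044 genes with a member in replicate 3. The causes of these changes were not tested. No paired analysis was possible because there is a single group and no test between groups.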

Other observations

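The remaining members named by distance or width were as follows. In replicate 2 a member 514 bp from a peak lay upstream of Yaf2, a Polycomb-associated gene, at -829 bp from its start, with a lowest false discovery rate of 2.64e-08 and no peak of replicate 3 over it. A member of 51 bp lay at chr9:78175653-78175703, intergenic, with Gsta4 as the nearest gene, at -16269 bp from its start. Another of 47 bp lay at chr12:99645677-99645723, intergenic, under both a peak and a footprint of replicate 3. Its nearest start, that of Foxn3, was far away, the member lying at -195626 bp from it.

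In replicate 3 a member 263 bp from a peak lay at -557 bp from the start of Map3k5, a stress kinase gene, and another 236 bp from a peak lay at -472 bp from the start of Narf. Both overlapped a member of replicate 2. A member of 31 bp lay upstream of Ect2, a gene of cytokinesis, and one of 28 bp upstream of Gemin4, a gene of spliceosome assembly. Each lay under a peak and a footprint of replicate 2. A member of 29 bp in an intron touched a peak with a signal of 50.6 and held 18 soft-masked bases. It lay at -1480 bp from the nearest start, that of Kpna1, an importin gene.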
